A study of Homo sapiens with 4 samples.

Results

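The mTORC1 core and its upstream brakes are a group of 10 genes, MTOR, RPTOR, RHEB, TSC1, TSC2, DEPTOR, DDIT4, SESN1, SESN2 and SESN3, chosen by symbol from the raw gene counts. Of the 10, 9 were analysed, out of 12912 genes in all, and SESN2 was not analysed here. All 9 had enough counts to be tested. The libraries came from 786-O, a clear cell renal carcinoma cell line without functional VHL, grown in RPMI1640 with fetal bovine serum. The group 786-O-Ctrl had the VHL-null genotype, the group 786-O-VHL expressed HA-tagged VHL from a retrovirus, and cells of both groups carried the triple reporter of GFP, luciferase and thymidine kinase (TR). There were 2 RNA-seq libraries in each group. Each group was 1 subline of 1 cell line, and the sources used here do not say whether a subline was a clone or a pool, nor whether its libraries came from separate cultures, so that p-values may measure only technical spread. The comparison asks how the mRNA of these genes differed once VHL, the substrate receptor of a ubiquitin ligase that removes HIFα, was expressed again.

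mTORC1 is a protein kinase complex at the lysosome that promotes protein, lipid and nucleotide synthesis when nutrients, energy and growth factors are sufficient. MTOR is its kinase, RPTOR presents substrates to the kinase, and the small GTPase RHEB switches it on. The brakes act before or on the complex. TSC1 and TSC2 form the complex that turns RHEB off, DEPTOR binds the kinase and inhibits it, DDIT4 (REDD1) acts through the TSC complex under hypoxia and other stress, and the sestrins SESN1 to SESN3 hold mTORC1 off when amino acids are short. In clear cell renal carcinoma the pathway is the target of approved mTOR inhibitors.

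The counts summed to 22141263 in the deeper 786-O-Ctrl library and to 15714166 in the shallower, whose columns carry the same replicate number and are told apart here by depth. In 786-O-VHL they summed to 2807779 in replicate 1 and 16114120 in replicate 2. VHL mRNA, the check of the labels, was at 42.9 and 43.9 CPM (counts scaled to library size with edgeR's TMM factors) in 786-O-Ctrl and at 178 and 163 CPM in 786-O-VHL (log2 fold change 1.96, edgeR FDR = 2.86e-19). The 9 genes looked up as renal epithelial markers, with VIM and CDH2 on that list, all had counts. At an edgeR FDR under 0.05, 5 of them fell (PAX8 and VIM among them), 1 rose (CDH6) and 3 were not called (CDH2 among them). Of all genes tested, 31.9% fell and 32.6% rose. Their summed level was 2201 to 2314 CPM in 786-O-VHL against 3539 to 3555 CPM in 786-O-Ctrl. VIM alone made up much of that sum and of its fall, at a mean of 730 against 1684 CPM. Of 10 markers of blood, endothelial, stromal and liver cells, 3 were analysed, with a summed level of 7.38 to 7.60 CPM in 786-O-Ctrl and 8.85 to 9.84 CPM in 786-O-VHL. In bulk RNA, fewer cells of a type and less RNA per cell cannot be told apart.

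DEPTOR rose 5.80-fold and TSC2 1.38-fold in 786-O-VHL, while TSC1 was 19.1% and RPTOR 16.5% lower. The other 5 genes, MTOR, RHEB, DDIT4, SESN1 and SESN3, did not pass the test. Calls are at an edgeR FDR (Benjamini-Hochberg adjusted p over all 12335 genes tested) under 0.05, and a positive log2 fold change means a higher level in 786-O-VHL. So 4 of 9 genes were called, or 44.4%, beside 64.5% of all genes tested. By direction, 2 rose and 2 fell, beside 32.6% and 31.9% of all genes tested. The median log2 fold change of the 9 was -0.070, beside 0.017 for all genes. DEPTOR alone among them passed a fold change over 4 with FDR under 0.01, which 4.46% of all genes did.

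**Figure D1:**
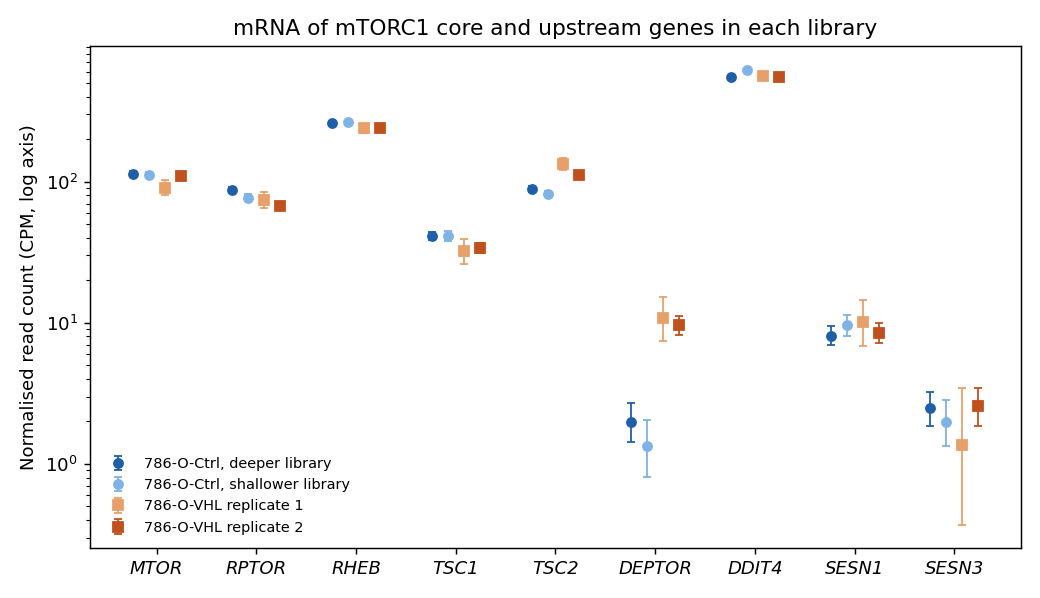
Normalised read count (CPM, log axis) of the 9 genes in each of the 4 libraries, circles for 786-O-Ctrl and squares for 786-O-VHL, with bars for the 95% Poisson interval of the count. DEPTOR shows the widest gap between groups, with 1.33 and 1.99 CPM against 9.62 and 10.9 CPM.

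For 3 of the genes the sequence before the transcription start is shown, because DDIT4 is a known hypoxia-responsive gene and because TSC1 and TSC2, whose proteins form 1 complex, moved in opposite directions. The sequences are those of RefSeq on GRCh38.p14, 5′ to 3′ on the strand of the gene, and end at the base before the annotated start. Capitals mark the letters found by a search on both strands for ACGTG and GCGTG (the cores of the hypoxia response element), CACGTG (the E-box, which contains ACGTG), TGATGNAA (an element of ATF4 and C/EBP factors) and GTAAACA (forkhead box O factors). DDIT4 is given at chr10:72273674-72273923 (plus strand), TSC2 at chr16:2047835-2047984 (plus strand, shown from beyond the neighboring NTHL1 gene) and TSC1 at chr9:132944617-132944866 (minus strand).
DDIT4: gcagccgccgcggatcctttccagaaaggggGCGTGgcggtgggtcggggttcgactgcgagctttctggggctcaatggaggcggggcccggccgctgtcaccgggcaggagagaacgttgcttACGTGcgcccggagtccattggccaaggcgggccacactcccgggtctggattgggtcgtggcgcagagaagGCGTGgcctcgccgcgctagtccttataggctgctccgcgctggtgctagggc
TSC2: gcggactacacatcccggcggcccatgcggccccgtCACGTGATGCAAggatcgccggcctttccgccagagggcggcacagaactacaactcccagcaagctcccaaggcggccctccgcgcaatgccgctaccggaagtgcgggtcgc
TSC1: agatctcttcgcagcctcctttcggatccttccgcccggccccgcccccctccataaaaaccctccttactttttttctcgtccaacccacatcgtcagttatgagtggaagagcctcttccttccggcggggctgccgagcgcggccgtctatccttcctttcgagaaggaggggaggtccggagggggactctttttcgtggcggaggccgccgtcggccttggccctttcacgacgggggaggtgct
In windows from 250 bases before to 50 after the start, DDIT4 had ACGTG at position -125 and GCGTG at positions -219, -53 and 26. TSC2 had CACGTG at position -114, running into TGATGNAA at position -110, in the window shown, while the window of its other annotated start held none of the motifs. The TSC1 window held none of the motifs. Of 35116 such windows of all genes, 21.4% held ACGTG, 36.5% GCGTG, 48.4% either of these cores, 7.26% CACGTG, 3.62% TGATGNAA and 3.42% GTAAACA. Of the 11 windows of the 8 genes searched, 3 held ACGTG (RHEB, TSC2 and DDIT4), 4 held GCGTG (MTOR, RPTOR, DDIT4 and SESN1) and none held GTAAACA. The presence of such a core thus did not set DDIT4 apart from the other genes named. DDIT4 alone held both cores, and its number of matches was not compared with that of the windows of all genes. These are matches of letters and do not show binding.

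In the core of the complex RPTOR fell and MTOR did not pass the test. MTOR, the kinase (ENSG00000198793.12, chromosome 1 of GRCh37 from 11166592 to 11322613, minus strand) was at 114 and 111 CPM in the 786-O-Ctrl libraries and at 90.6 and 110 CPM in 786-O-VHL. Its lowest value was that of 786-O-VHL replicate 1, the shallowest library, and the nearest libraries of the groups differed by 0.025 on the log2 scale. The log2 fold change of -0.12 had a 95% interval from -0.27 to 0.031 and an edgeR FDR of 0.157. The value was -0.32 (edgeR FDR = 0.00629) without 786-O-VHL replicate 2 and -0.043 (edgeR FDR = 0.534) without replicate 1.

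RPTOR, the scaffold that recruits mTORC1 substrates (ENSG00000141564.15, chromosome 17 from 78518619 to 78940171, plus strand), was at 87.4 and 76.9 CPM in 786-O-Ctrl and at 74.3 and 66.9 CPM in 786-O-VHL. Both 786-O-VHL values lay below both 786-O-Ctrl values, but the nearest libraries differed by only 0.050 on the log2 scale, less than the 0.19 between the 786-O-Ctrl libraries. The log2 fold change was -0.26 (SE 0.0784, edgeR FDR = 0.00501). The call was lost with DESeq2 (-0.26, DESeq2 FDR = 0.0766), with libraries thinned to equal depth (-0.15, edgeR FDR = 0.265), and without the deeper 786-O-Ctrl library (-0.15, edgeR FDR = 0.291) or without 786-O-VHL replicate 2 (-0.16, edgeR FDR = 0.276).

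RHEB, the GTPase that activates the kinase (ENSG00000106615.10, chromosome 7 from 151163098 to 151217206, minus strand), was at 260 and 264 CPM in 786-O-Ctrl and at 239 and 238 CPM in 786-O-VHL. The replicates lay close together and the groups did not overlap. The log2 fold change of -0.13 (95% interval -0.26 to -0.0051) missed the threshold at an edgeR FDR of 0.0635. With RLE size factors, limma-voom, libraries thinned to equal depth, or without 786-O-VHL replicate 1 it passed, at FDR values between 0.0157 and 0.0429.

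The pair that forms the TSC complex moved apart. TSC2, the GTPase-activating subunit that turns RHEB off (ENSG00000103197.18, chromosome 16 from 2097968 to 2139492, plus strand), was at 88.6 and 81.9 CPM in 786-O-Ctrl and at 134 and 111 CPM in 786-O-VHL. Every 786-O-VHL value was higher, and the gap of 0.33 between the nearest libraries of the groups exceeded the spread of 0.11 and 0.27 within them. Its log2 fold change was 0.47 (SE 0.0759, edgeR FDR = 4.85e-06). Exons of PKD1 on the opposite strand overlap 12.2% of the TSC2 transcript. PKD1 rose too, from 126 ± 3.66 to 236 ± 14.1 CPM (SD, n = 2 each; log2 fold change 0.92, edgeR FDR = 7.62e-13). The strand setting of the counting is not given in the sources used here, and the part of PKD1 reads in the TSC2 result was not tested.

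TSC1, the partner that stabilizes TSC2 (ENSG00000165699.14, chromosome 9 from 135766735 to 135822261, minus strand), was at 41.4 and 41.1 CPM in 786-O-Ctrl and at 32.2 and 33.7 CPM in 786-O-VHL. The replicates differed by at most 0.066 on the log2 scale, against 0.29 between the nearest libraries of the groups. For TSC1 the log2 fold change was -0.31 (SE 0.094, edgeR FDR = 0.00568). The value was similar but the call was lost with DESeq2 (-0.33, DESeq2 FDR = 0.0636), without the deeper 786-O-Ctrl library (-0.31, edgeR FDR = 0.0675) and without 786-O-VHL replicate 2 (-0.36, edgeR FDR = 0.0518). Taken per kilobase of transcript, TSC2 mRNA was 2.87 and 2.67 times TSC1 mRNA in the 786-O-Ctrl libraries and 5.56 and 4.41 times in 786-O-VHL replicates 1 and 2. With the length of all exons of each gene joined, in place of the canonical transcript, the ratios were 1.83 and 1.71 against 3.56 and 2.82. The groups did not overlap in this ratio. A change of length multiplies the ratio by the same factor in every library, and the scaling of the libraries cancels in it. The second length thus moved the level of the ratio but could not alter the overlap, so it is no separate support. With 2 libraries against 2, a two-sided exact permutation test of such a ratio cannot go below p = 0.333.

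**Figure D2:**
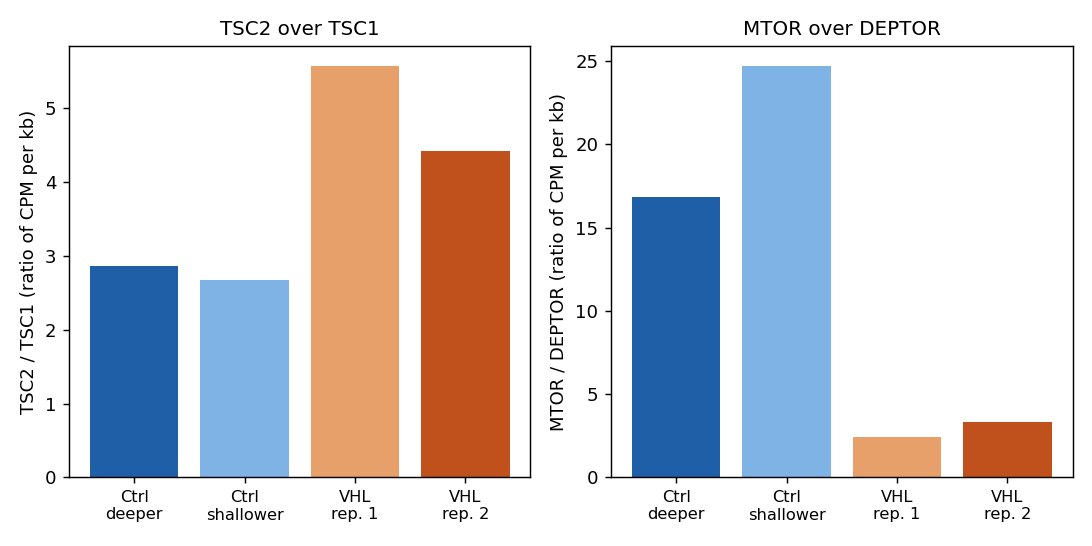
Ratio of TSC2 to TSC1 (left) and of MTOR to DEPTOR (right) in each library, from CPM per kilobase of transcript, with 1 bar per library and both axes starting at 0. TSC2 over TSC1 ran from 2.67 to 2.87 in 786-O-Ctrl and from 4.41 to 5.56 in 786-O-VHL, and MTOR over DEPTOR from 16.8 to 24.7 and from 2.46 to 3.35.

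DEPTOR showed the largest change of the 9 genes. This inhibitor of the mTOR kinase (ENSG00000155792.10, chromosome 8 from 120885957 to 121063157, plus strand) had 42 counts in the deeper 786-O-Ctrl library and 20 in the shallower, while 786-O-VHL replicate 1 had 32 and replicate 2 had 162. As levels these were 1.99 and 1.33 CPM against 10.9 and 9.62 CPM, so that 786-O-VHL replicate 1 held more DEPTOR reads than the shallower 786-O-Ctrl library at less than its depth. The nearest libraries of the groups differed by 2.27 on the log2 scale, against 0.59 between the 786-O-Ctrl libraries and 0.17 between those of 786-O-VHL. DEPTOR had a log2 fold change of 2.54 (95% interval 2.01 to 3.07, edgeR FDR = 1.44e-09), and 227 of the 12335 genes tested had a larger one. Over all alternatives of the processing, left-out libraries included, it stayed between 2.31 and 2.90, with FDR values of at most 1.76e-05. Exons of DEPTOR-AS1, on the opposite strand, overlap 9.62% of the transcript, and reads from both could be mixed where strand was not used.

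Per kilobase of transcript, MTOR mRNA was 16.8 and 24.7 times DEPTOR mRNA in the 786-O-Ctrl libraries and 2.46 and 3.35 times in the 786-O-VHL libraries. With all exons joined these ratios were 11.2 and 16.5 against 1.64 and 2.24. In CPM over the 4 libraries, the tested genes closest to DEPTOR in pattern were ADGRA2, LYRM9 and PDE5A. Their Euclidean distances to it were 0.101, 0.116 and 0.187, on log2 values centred on each gene's mean, with 0.5 CPM added. Their log2 fold changes were 2.45, 3.26 and 2.56. LYRM9 lay at 0.43 and 0.20 CPM in the 786-O-Ctrl libraries, below the 0.5 CPM added, so that its distance depends on that addition.

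**Figure D3:**
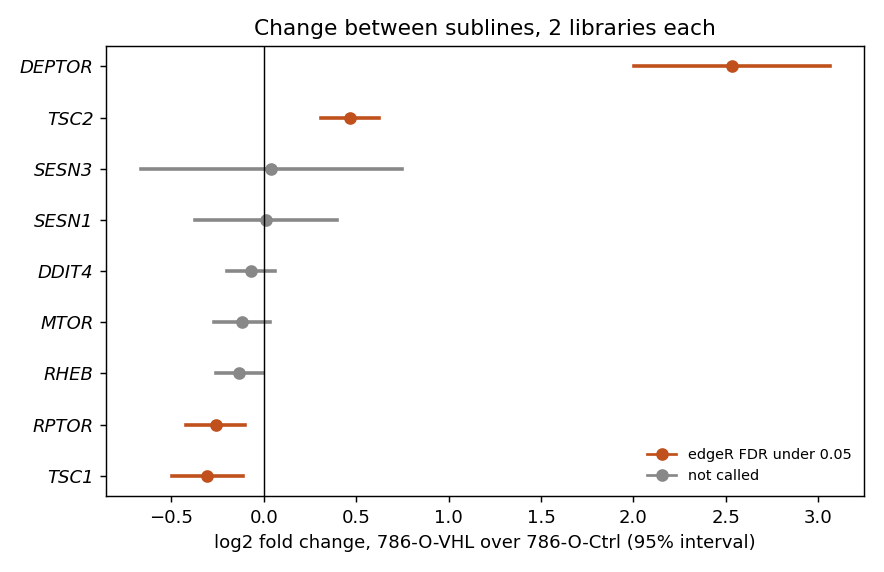
Log2 fold change of each gene, 786-O-VHL over 786-O-Ctrl, with its 95% interval from the edgeR fit (2 libraries per group), colored where the edgeR FDR is under 0.05. DEPTOR lies at 2.54 and TSC2 at 0.47, TSC1 and RPTOR at -0.31 and -0.26, and the intervals of the sestrins are the widest of the genes not called.

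DDIT4 was the most abundant of the 9 and did not pass the test, while 14 of 20 other HIF target genes tested fell in 786-O-VHL and none rose at an edgeR FDR under 0.05, beside 31.9% lower and 32.6% higher of all genes tested. The paper states that 786-O does not express HIF1α, and the list of HIF targets was not split by HIF subunit. DDIT4 (ENSG00000168209.5, chromosome 10 from 74033678 to 74035794, plus strand), whose sequence is shown above, was at 552 and 619 CPM in 786-O-Ctrl and at 565 and 551 CPM in 786-O-VHL. The groups overlapped, with the 786-O-Ctrl libraries farther apart (0.16 on the log2 scale) than those of 786-O-VHL (0.036). Its log2 fold change was -0.070 with a 95% interval from -0.20 to 0.061 (edgeR FDR = 0.346). DDIT4 is a target of ATF4 as well, and of 17 other ATF4 target genes tested, 14 rose and 2 fell. Whether HIF or ATF4 acted on DDIT4 in these cells was not tested.

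Neither sestrin analysed passed the test, and both had low counts. SESN1 (ENSG00000080546.13, chromosome 6 from 109305512 to 109416049, minus strand), a sestrin induced by genotoxic stress, had 171 and 144 counts in the 786-O-Ctrl libraries against 30 and 143 in 786-O-VHL, or 8.12 and 9.57 CPM against 10.2 and 8.49 CPM. These values overlapped between groups. The log2 fold change was 0.012 (95% interval -0.37 to 0.40, edgeR FDR = 0.959).

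SESN3 (ENSG00000149212.11, chromosome 11 from 94898677 to 94965705, minus strand), a sestrin induced by forkhead box O factors, had 52 and 30 counts in the 786-O-Ctrl libraries against 4 and 43 in 786-O-VHL. In CPM these were 2.47 and 1.99 against 1.36 and 2.55. The 4 counts of 786-O-VHL replicate 1 allow 0.37 to 3.47 CPM (95% Poisson interval, counting error only), a range that holds the other 3 libraries. The log2 fold change of 0.039 had a 95% interval from -0.67 to 0.75 (edgeR FDR = 0.929), so that changes of either sign within it remain compatible with these counts.

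Ordered by CPM per kilobase of transcript in 786-O-Ctrl, DDIT4 stood first with 335 ± 26.9 (SD, n = 2), followed by RHEB with 128 ± 1.59. TSC2 and MTOR came next at 13.3 ± 0.737 and 12.9 ± 0.21, then RPTOR with 12.8 in the deeper and 11.2 in the shallower library, and each overlapped its neighbor in that order. TSC1 was at 4.80 ± 0.0223, SESN1 at 1.56 ± 0.181, DEPTOR at 0.647 ± 0.183 and SESN3 at 0.233 ± 0.0352, with no overlap between neighbors. In 786-O-VHL, DDIT4 and RHEB again led with 319 ± 5.71 and 117 ± 0.231. TSC2 then stood above MTOR without overlap, at 19.1 ± 2.49 against 11.5 ± 1.53. This place of TSC2 turned with the length: per kilobase of all exons joined, TSC2 lay below MTOR and RPTOR in each library, with means of 4.15 against 8.43 and 7.98 in 786-O-Ctrl and 5.96 against 7.48 and 6.85 in 786-O-VHL. DEPTOR, at 3.99 ± 0.34, had moved up beside TSC1, at 3.84 ± 0.124, and their values overlapped.

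The 786-O-VHL libraries lay wholly below the 786-O-Ctrl libraries for 4 of them (MTOR, RPTOR, RHEB and TSC1), beside 39.2% of all genes tested, and wholly above for 2 (TSC2 and DEPTOR), beside 40.8%. The scaling of the libraries moved the small differences. With library totals alone the median of all genes tested was 0.15 in place of 0.017, and MTOR, RHEB and DDIT4 lay at 0.015, 0.00092 and 0.064, with the sign reversed. RPTOR and TSC1 stayed below 0 at -0.13 and -0.17 but were not called (edgeR FDR = 0.153 and 0.108). TSC2 and DEPTOR were called at 0.60 and 2.67.

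**Figure D4:**
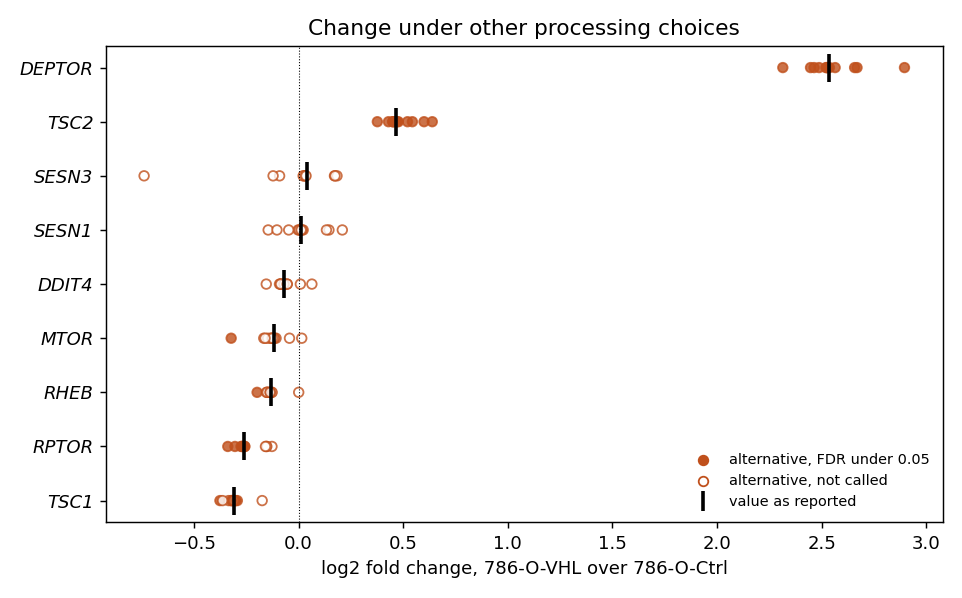
Log2 fold change of each gene under the alternatives of the processing (circles, filled where the FDR was under 0.05) and as reported (black bars). DEPTOR and TSC2 are filled throughout, while the circles of RPTOR and TSC1 are partly open and those of DDIT4, SESN1 and SESN3 all open.

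Around these genes, 80 others of the pathway were looked up, of which 77 could be tested. At an edgeR FDR under 0.05, 29 rose and 20 fell, or 63.6% in all beside 64.5% of all genes tested, with a median log2 fold change of 0.059. With library totals alone, 36 rose and 13 fell, in a fit that called 8174 of all 12335 genes tested. The largest rises were those of C12orf66 (1.09, a subunit of KICSTOR, which anchors GATOR1 at the lysosome), RRAGB (1.04, a Rag GTPase that recruits mTORC1) and ULK1 (1.04, the autophagy kinase that mTORC1 inhibits). IRS2 (-1.47, an insulin receptor adaptor), TELO2 (-1.24, a cochaperone for assembly of mTOR and related kinases) and PRR5L (-0.95, a partner of mTORC2) fell most. Values in parentheses are log2 fold changes, and the edgeR FDR of these 6 genes was at most 2.89e-06.

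By group, to be read beside the 32.6% of all genes tested that rose and the 31.9% that fell, the other partners and assembly factors of mTORC1 had 2 higher and 2 lower of 6, and the Rag GTPases, Ragulator and SLC38A9 3 higher and 3 lower of 10. GATOR1 and KICSTOR, the amino acid brake before the Rag GTPases, had 1 higher and 1 lower of 7, and GATOR2 with the amino acid sensors 2 higher and 1 lower of 7. Of the folliculin complex, 2 of 3 rose. LKB1 and AMPK, which signal low energy to TSC2 and RPTOR, had 5 higher and 2 lower of 9. Growth factor input through PI3K and AKT had 2 higher and 5 lower of 12, and the subunits of mTORC2 1 higher and 2 lower of 4. Substrates and outputs of mTORC1 had 7 higher and 4 lower of 14, and the other regulators 4 higher and 0 lower of 5. All of these are mRNA levels, and neither protein levels nor mTORC1 activity were analysed here. FOXO3 and FOXO1, which induce SESN3, had log2 fold changes of 0.27 (edgeR FDR = 0.00202) and 0.42 (edgeR FDR = 0.0478). ATF4, whose translation mTORC1 promotes, was at 483 and 500 CPM in 786-O-Ctrl and at 499 and 549 CPM in 786-O-VHL (log2 fold change 0.10, edgeR FDR = 0.161).

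**Figure D5:**
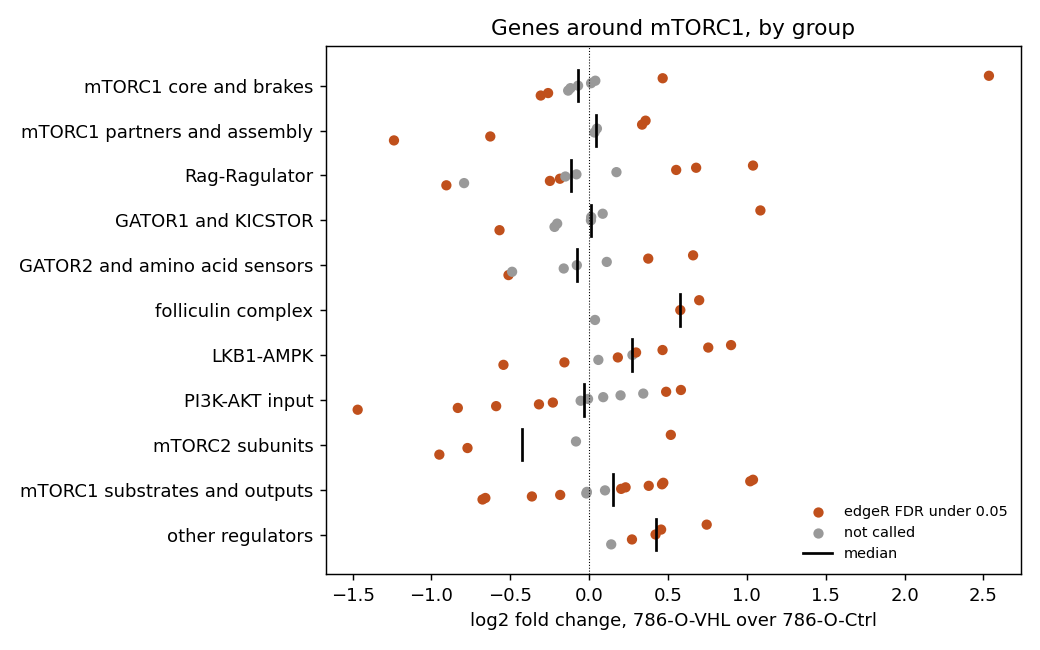
Log2 fold change of each tested gene, 786-O-VHL over 786-O-Ctrl, for the 9 genes (top) and 10 groups of other genes around mTORC1, with black bars for the median of each group. Colored points passed an edgeR FDR of 0.05, and DEPTOR at 2.54 lies apart from all others, which range from -1.47 to 1.09.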

How the data were processed

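RNA-seq reads of 2 786-O-Ctrl and 2 786-O-VHL libraries were aligned to hg19 (GRCh37) by the authors, who deposited raw read counts per gene. CASAVA and STAR are named in the submitters' processing notes, while for the counting tool, its strand setting and its annotation nothing was found (not given in the sources used here). Counts were tested with edgeR 4.0.16 (R 4.3.3): genes were filtered with filterByExpr (minimum count 10, 12335 of 12912 kept), scaled by TMM and fitted with the quasi-likelihood test, with group as the only term and Benjamini-Hochberg adjustment over all genes tested. The study used DESeq2, which was run here as an alternative (1.42.0), as were limma-voom (limma 3.58.1), RLE factors, library totals, other filters, a prior count of 2, thinning to equal depth and leaving out each library. For a repeated symbol the identifier with most counts was used. Levels per kilobase used the length of the canonical transcript in GENCODE v44 lifted to GRCh37, and gene positions are from that annotation. For DDIT4, where no transcript was marked as canonical, the longest coding transcript was used. Promoter sequences were those of RefSeq on GRCh38.p14. No DEPTOR sequence is shown, and SESN2 was not analysed here. Poisson intervals cover counting error only. The fits with edgeR, limma-voom and DESeq2 were tested on simulated data, while the steps for lengths, ratios and motifs were not.

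The genes and all lists were chosen with earlier results of these data known. Genes named in the text are the 9 genes, VHL, up to 3 per direction with the largest called change over the pathway lists together and in each target gene list reported, FOXO1, FOXO3 and ATF4, and the 3 genes closest in pattern to the gene with the largest change. Some results that the rule would name are not reported here. PKD1 and DEPTOR-AS1 were named after the values were seen, because they overlap TSC2 and DEPTOR.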

Additional observations from a re-analysis of the deposited data

How the results depend on the processing

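The calls of DEPTOR and TSC2 held under every alternative run, with log2 fold changes of 2.31 to 2.90 and 0.38 to 0.64. The number of the 9 genes that rose was 2 throughout, while the number that fell, 2 as reported, was 0 with library totals alone, 0 with DESeq2 and 0 to 3 with a library left out (0 without the deeper 786-O-Ctrl library, 1 without 786-O-VHL replicate 2). The 20 pathway genes that fell became 13 with library totals alone and 13 to 21 with a library left out, and the 29 that rose became 19 to 32 with a library left out (19 without the shallower 786-O-Ctrl library, and 13 that fell without the deeper one). In these fits the lone library of a group is assumed to vary like the others. Only genes that were not called changed sign. With library totals alone, MTOR lay at 0.015, RHEB at 0.00092 and DDIT4 at 0.064. SESN1 lay at -0.0020 with RLE factors, -0.14 thinned, -0.10 without the deeper 786-O-Ctrl library and -0.047 without 786-O-VHL replicate 1. SESN3 lay at -0.090 with DESeq2, -0.12 without the shallower 786-O-Ctrl library and -0.74 without 786-O-VHL replicate 2, and DDIT4 at 0.0089 without the shallower 786-O-Ctrl library. With a library left out, DDIT4 ran from -0.15 to 0.0089, SESN1 from -0.10 to 0.21 and SESN3 from -0.74 to 0.18. SESN3 could not be tested when thinned or with 10 counts asked of every library. Joining all exons for the length, an alternative chosen after seeing the data, lowered the mean ratio of TSC2 to TSC1 from 2.77 to 1.77 in 786-O-Ctrl and from 4.99 to 3.19 in 786-O-VHL. Where a call was lost, the cause was not tested. The shallow 786-O-VHL replicate 1, with 2807779 counts, limits what can be seen of SESN1 and SESN3. For the other genes too, the deeper 786-O-VHL replicate 2 weighs more in the fit. The mean of SESN3 was 2.23 CPM in 786-O-Ctrl and 1.96 CPM in 786-O-VHL, while its fitted log2 fold change was 0.039. No paired analysis was possible because both 786-O-Ctrl columns carry the same replicate number.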

Other observations

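Target genes of HIF, ATF4 and FOXO factors were read from lists that leave out the 9 genes. Calls are at an edgeR FDR under 0.05, which 32.6% of all genes tested passed as higher and 31.9% as lower in 786-O-VHL, and values are log2 fold changes. Of 20 HIF target genes, 14 fell and 0 rose, with a median of -0.77. EGLN3, a HIF prolyl hydroxylase, fell by 4.36, the carbonic anhydrase CA12 fell by 2.91 and PFKFB4, a regulator of glycolysis, fell by 2.10. DDIT4, itself a HIF target and a target of ATF4 as well, was at -0.070 and not called. The input of either factor to DDIT4 was not tested.

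Of 17 ATF4 target genes tested, 14 rose and 2 fell, with a median of 0.75. DDIT3 (CHOP), a stress-induced transcription factor, rose by 2.40 and PPP1R15A, which directs dephosphorylation of eIF2α, by 2.25, while ATF5 and SLC7A5, a transporter of large neutral amino acids, were at -0.50 and -0.15. PHGDH, which was called as well, had 7 and 1 counts in the 786-O-Ctrl libraries against 3 and 19 in 786-O-VHL. Of 11 FOXO target genes, 9 rose and 2 fell. TXNIP, an inhibitor of thioredoxin and glucose uptake, rose by 4.35, GADD45A by 1.62 and KLF9 by 1.33, while IRS2 was at -1.47 and SOD2, the mitochondrial superoxide dismutase, at -0.39. SESN3, a FOXO target, was not called.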
